A study of Mus musculus with 2 samples.

Results

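The genes described here are 37 genes of the lysosome in mouse wound monocytes and macrophages. They were chosen by symbol as 9 lysosomal proteases, 5 glycosidases, 8 lipid enzymes and lipid carriers, 6 lysosomal membrane proteins, 7 subunits of the proton pump and 2 transcription factors. All 37 were among the 31053 genes listed in the count matrices, and all 37 were among the 12337 genes with at least 20 unique molecular identifiers (UMIs, each standing for 1 captured transcript molecule) over both libraries. The cells were taken from skin wounds of mice without or with diabetes, 6 days after injury, and droplet-based sequencing of transcript 3′ ends was used. Each group was 1 library that pooled cells of 2 mice, and the labels describe the pooling as by strain without naming the strains, the ages or the model of diabetes. A difference between the libraries therefore has no replicate check, and diabetes, strain and library cannot be told apart.

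A lysosome is an acidic organelle in which hydrolases break down proteins, sugars and lipids delivered by endocytosis, phagocytosis and autophagy. The vacuolar proton pump (V-ATPase) acidifies it, with a membrane sector that carries protons and a cytosolic sector that splits ATP. Transcription factors of the TFE family, which includes TFEB and MITF, bind E-box motifs near the start of many lysosomal genes, and macrophages that clear debris from wounds are rich in lysosomes.

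Barcodes were kept when they showed 500 genes or more and mitochondrial UMIs below 10%, which left 1123 of 2026 barcodes in the non-diabetic library and 1755 of 2214 in the diabetic library. The kept cells held 15429273 and 30435047 UMIs, with medians of 14079 and 16314 UMIs per cell, and 1 kept barcode occurred in both libraries. Csf1r, a receptor that defines monocytes and macrophages, was at 338 and 512 CPM (UMIs scaled to a total of 1000000 per library) in the non-diabetic and diabetic library. The 12 macrophage markers were all at least 1.5-fold higher in the diabetic library (summed level 5577 against 12316 CPM), and 8 of 10 monocyte markers were at least 1.5-fold lower (10089 against 6231 CPM). Of 12 conventional dendritic cell markers, 10 were measured and 8 of these were lower (415 against 145 CPM over the list). Of 10 neutrophil markers, 7 were measured and all 7 were higher (284 against 4650 CPM over the list). S100a8 alone was at 164 and 3917 CPM, while Ly6g, Ngp and Camp had too few UMIs to be measured. S100a8 was also among the genes with high fold in the Orm1-led cluster, which met no marker set (described below). The sums are therefore not a measure of neutrophil numbers. The 7 fibroblast markers summed to 292 and 54.8 CPM. Markers of T or NK, B, mast, endothelial and keratinocyte cells summed to at most 42.0 CPM per list, and Cd3e, Ms4a1 and Krt5 were at 0 in both libraries. The part of cell makeup in these marker levels and in the ratios of the lysosomal genes was not tested.

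RefSeq promoter windows (GRCm38.p6, the build of the mm10 coordinates), each from 250 bases before to 50 bases after a start site, were found for 30 of the 37 genes, in 39 windows. The E-box CACGTG, which reads the same on both strands, was in the windows of 11 of these 30 genes (36.7%), against 1111 of 9447 measured genes with a window (11.8%). By window it was in 11 of 39 (28.2%) against 2349 of all 32851 windows (7.15%). The longer form TCACGTGA, which contains the E-box, was in 5 of the 30 genes (16.7%) against 2.23% of measured genes, and that form with a further G before and C after it was in 0 of the 30 against 0.836%. A match is a description of these letters and not a binding site. Of the 17 matches, 15 lay before the start site, between positions -245 and 5. One stretch per gene is shown so that the surroundings of the motif can be compared, written 5′ to 3′ on the gene's strand with the E-box in capitals.
Ctsd (protease), chr7:142387908-142387937, minus strand: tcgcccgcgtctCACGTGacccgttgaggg
Ctsl (protease), chr13:64370739-64370768, minus strand: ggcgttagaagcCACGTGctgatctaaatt
Lgmn (protease), chr12:102439124-102439153, minus strand: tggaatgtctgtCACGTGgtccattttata
Ctsa (protease), chr2:164833749-164833778, plus strand: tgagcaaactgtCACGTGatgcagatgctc
Gaa (glycosidase), chr11:119267811-119267840, plus strand: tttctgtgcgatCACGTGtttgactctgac
Glb1 (glycosidase), chr9:114401018-114401047, plus strand: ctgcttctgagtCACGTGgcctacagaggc
Atp6v0b (proton pump), chr4:117887348-117887377, minus strand: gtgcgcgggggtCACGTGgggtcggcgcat
Atp6v0d1 (proton pump), chr8:105566050-105566079, minus strand: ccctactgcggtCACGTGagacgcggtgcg
Atp6v0e (proton pump), chr17:26676387-26676416, plus strand: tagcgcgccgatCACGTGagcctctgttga
Atp6v1a (proton pump), chr16:44139373-44139402, minus strand: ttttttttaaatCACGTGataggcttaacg
Of the 5 pump subunits with a window, 4 are among these 10 genes, and Atp6v1b2 and Atp6v1h had no window. Lamp1, an abundant glycoprotein of the lysosomal membrane, had 4 E-boxes within its window, the largest number among the 30 genes, and its whole window is shown for their spacing.
Lamp1, chr8:13158911-13159210, plus strand: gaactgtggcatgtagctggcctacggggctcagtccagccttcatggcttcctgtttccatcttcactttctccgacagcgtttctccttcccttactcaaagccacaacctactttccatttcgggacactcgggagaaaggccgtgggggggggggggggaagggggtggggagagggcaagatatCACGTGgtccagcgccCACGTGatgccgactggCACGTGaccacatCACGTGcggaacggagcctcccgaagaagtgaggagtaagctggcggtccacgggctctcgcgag
The 4 matches start at positions -61, -45, -28 and -15 from the start site. The 11 genes with an E-box had a median log2 ratio of diabetic over non-diabetic level of 0.26 (range -0.81 to 0.88), and the 19 genes with a window but no E-box had a median of 0.00 (range -1.22 to 1.77). Over all measured genes the medians with and without an E-box were 0.15 and 0.12, and the ranges of the 11 and the 19 genes overlap.

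Over all kept cells, the 37 genes gave 1.48% of the UMIs in the non-diabetic library and 1.70% in the diabetic library, a ratio of 1.15 (95% interval 1.15 to 1.16). Here and below, intervals are exact and cover counting error only, not the spread between mice. The proteases made up most of that gap, with 0.613% and 0.801% of UMIs and a ratio of 1.31 (1.30 to 1.32). The proton pump subunits gave 0.120% and 0.136% (ratio 1.14), the membrane proteins 0.260% and 0.288% (ratio 1.11) and the glycosidases 0.0523% and 0.0586% (ratio 1.12). The lipid enzymes and carriers were close to level, at 0.424% and 0.412% (ratio 0.971, interval 0.962 to 0.981). The 2 transcription factors were lower in the diabetic library, at 0.00760% and 0.00530% (ratio 0.698, interval 0.647 to 0.753).

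Of the 37 genes, 6 were at least 1.5-fold higher in the diabetic library (16.2%) and 3 at least 1.5-fold lower (8.11%), against 18.7% and 12.9% of all measured genes. Over all kept cells the share of the 37 genes past this fold was thus no higher than that of genes at large. The higher genes were Cd63, Ctsl, Lgmn, Plbd2, Gaa and Lipa, and the lower ones Atp6v0c, Glb1 and Laptm5. The median log2 ratio was 0.19, against 0.12 over all measured genes. Of the 37 ratios, 25 were above 0, against 7432 of the 12337 measured genes. With ratios centred on the median gene, 4 genes were higher and 6 lower, against 14.3% and 15.9% of all genes: Gaa and Lipa dropped out, and Npc2, Tfeb and Mitf joined the lower genes. With the 12 clusters drawn almost wholly from a single library left out (described below), 401 and 316 cells remained, of which 42 and 101 were in the macrophage-like Igf1-led cluster. In these cells 11 of the 37 genes were higher (29.7%) and 1 lower (2.70%), against 12.8% and 10.6% of the genes measured there, and the median log2 ratio was 0.19, against 0.04 over all genes. The part of the unequal Igf1-led share in these counts was not tested.

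**Figure D1:**
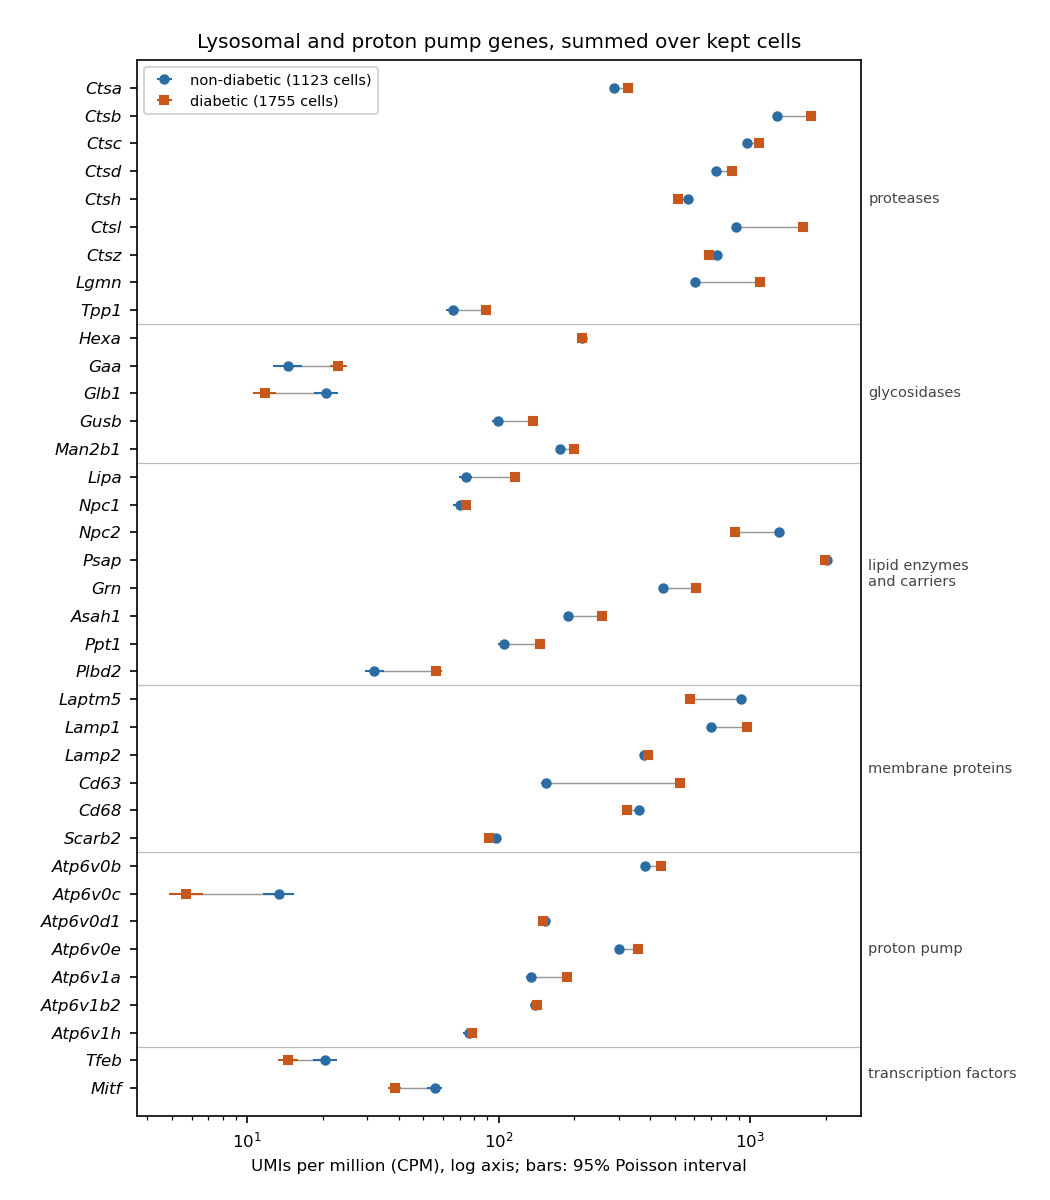
Level of each of the 37 genes in CPM (log axis), summed over the kept cells of the non-diabetic (circles) and diabetic (squares) library, with 95% Poisson intervals as bars and genes grouped by role. Cd63 shows the widest gap, from 154 to 524 CPM, and Psap is the highest gene in both libraries at 2018 and 1988 CPM.

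The proteases included the most abundant and the most divergent enzymes. UMIs were counted at transcript ends and were not divided by transcript length. Ctsl (chr13:64359337-64370890 in the GENCODE annotation of mm10), which encodes the cysteine protease cathepsin L, was at 882 CPM in the non-diabetic and 1623 CPM in the diabetic library, 1.84-fold higher (1.81 to 1.88). Lgmn (chr12:102394084-102439813), encoding legumain, which cleaves after asparagine and processes other cathepsins, was at 601 and 1096 CPM, 1.82-fold higher (1.78 to 1.87). Both genes had at least 9266 UMIs in each library, so that counting error was small beside the gap. Ctsb (cathepsin B, a cysteine protease) was at 1283 and 1748 CPM, 1.36-fold higher, and Tpp1, a peptidase that removes tripeptides from protein ends, was at 65.5 and 89.3 CPM, also 1.36-fold higher. The aspartic protease gene Ctsd was at 734 and 847 CPM. The dipeptidyl peptidase gene Ctsc was at 975 and 1080 CPM, and the carboxypeptidase gene Ctsa at 287 and 327 CPM. These 3 differed by less than 1.2-fold over all kept cells. The log2 ratio of Ctsd, 0.21, was -0.05 with each cell thinned to 2000 UMIs and 0.97 without the clusters drawn almost wholly from a single library. Ctsh (an aminopeptidase) was at 566 and 516 CPM and Ctsz (a carboxypeptidase) at 738 and 687 CPM, the only proteases of the 9 with a lower level in the diabetic library over all kept cells. The log2 ratio turned from -0.13 to 0.12 for Ctsh with cells thinned, and from -0.10 to 0.05 for Ctsz without the clusters of a single library.

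The Ctsl UMIs were spread differently over the clusters in the 2 libraries, as were the UMIs of all genes (clusters are described below). In the non-diabetic library the Sema3c-led cluster gave 47.0% of the Ctsl UMIs, against 26.1% of all UMIs. In the diabetic library the Cd163-led cluster gave 30.5% of the Ctsl UMIs, against 11.4% of all UMIs. Without the Cd163-led cells the Ctsl log2 ratio was 0.55, under the 1.5-fold mark, and without the Sema3c-led cells it was 1.36. The Lgmn log2 ratio of 0.87 lay between 0.74 and 1.10 when any 1 of the clusters was left out.

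The glycosidases, which remove sugars from glycoproteins, glycolipids and glycogen, differed in both directions. Gaa, encoding the acid glucosidase that degrades glycogen, had only 223 and 701 UMIs, or 14.5 and 23.0 CPM, 1.59-fold higher in the diabetic library (1.37 to 1.86). Its log2 ratio of 0.67 was 0.49 without the Sema3c-led cells and 0.57 without the Mpp7-led cells, under the 1.5-fold mark. Glb1, encoding lysosomal beta-galactosidase, had 318 and 358 UMIs, or 20.6 and 11.8 CPM, 1.75-fold lower (1.502 to 2.044). Glb1 shares exons on its strand with Tmppe, so reads of the pair may not have been separable. Gusb (beta-glucuronidase) was at 99.1 and 137 CPM and Man2b1 (acid alpha-mannosidase) at 175 and 200 CPM. Hexa, the alpha subunit of beta-hexosaminidase, was at 214 CPM in both libraries, and its interval for the log2 ratio ran from -0.06 to 0.06.

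Among the lipid enzymes and carriers, the phospholipase B-like gene Plbd2 had the highest ratio. It was at 32.02 and 56.48 CPM, 1.76-fold higher in the diabetic library (1.60 to 1.95). Lipa, the acid lipase that frees cholesterol and fatty acids from esters, was at 74.0 and 116 CPM, 1.57-fold higher (1.47 to 1.68), but its log2 ratio of 0.65 was under the 1.5-fold mark without the Sema3c-led (0.42), Igf1-led (0.52), Mpp7-led (0.55) or Cd163-led cells (0.57). Ppt1 (which removes palmitate from proteins), Asah1 (acid ceramidase) and Grn (progranulin, a secreted and lysosomal protein) were 1.39-fold, 1.37-fold and 1.36-fold higher. These lay under the 1.5-fold mark although their intervals excluded equality.

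The 2 cholesterol carriers of the lysosome differed from each other. Npc2, the soluble carrier that hands cholesterol to the membrane protein NPC1, was at 1306 CPM in the non-diabetic and 872 CPM in the diabetic library, 1.498-fold lower (1.471 to 1.526). Npc1 was at 70.1 and 74.4 CPM, and the interval of its log2 ratio (-0.02 to 0.19) included 0. Npc2 ranked second among the 37 genes in the non-diabetic library and 7th in the diabetic one. The Sema3c-led cluster held 35.0% of the Npc2 UMIs of the non-diabetic library, against 26.1% of all UMIs there. The log2 ratio of Npc2 was -0.40 without that cluster. Psap, encoding the precursor of the saposins that assist lipid hydrolases, gave 13.7% and 11.7% of all UMIs of the 37 genes and differed by 1.015-fold.

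The membrane proteins held the widest differences in either direction among the genes above 100 CPM in both libraries. Cd63 (chr10:128900989-128912822), a tetraspanin of late endosomes and lysosomes, had 2371 and 15940 UMIs, or 154 and 524 CPM, and was 3.41-fold higher in the diabetic library (3.26 to 3.56). Its log2 ratio of 1.77 stayed between 1.61 and 1.92 when any 1 cluster was left out. Laptm5 (chr4:130913125-130936141), a transmembrane protein of lysosomes in blood cells, was at 916 and 575 CPM, 1.59-fold lower (1.56 to 1.63), and its log2 ratio was -0.56, inside the 1.5-fold mark, without the Orm1-led cells. Lamp1 was at 697 and 969 CPM, 1.39-fold higher, while its relative Lamp2 was at 378 and 393 CPM, 1.04-fold higher. Cd68, a heavily glycosylated lysosomal protein used as a macrophage marker, was at 362 and 324 CPM, and Scarb2, the receptor that carries glucocerebrosidase to lysosomes, was at 97.3 and 91.8 CPM. Cd68 was thus slightly lower in the library in which all 12 macrophage markers were higher, although its log2 ratio of -0.16 was 0.01 with cells thinned.

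The proton pump subunits differed little. In the membrane sector, Atp6v0b was at 380 and 441 CPM, Atp6v0e at 300 and 359 CPM and Atp6v0d1 at 153 and 150 CPM. In the sector that splits ATP, the catalytic subunit gene Atp6v1a was at 134 and 187 CPM, 1.39-fold higher (1.32 to 1.46), the nucleotide-binding subunit gene Atp6v1b2 at 139 and 141 CPM and the regulatory subunit gene Atp6v1h at 76.1 and 77.9 CPM. The intervals of Atp6v0d1, Atp6v1b2 and Atp6v1h all included equality, and the widest, that of Atp6v1h, ran from -0.07 to 0.14 on the log2 scale. Atp6v0c (chr17:24163866-24169702), the main subunit of the proton-carrying ring, was the exception, with 206 and 174 UMIs, or 13.4 and 5.72 CPM, 2.33-fold lower in the diabetic library (1.90 to 2.87). Its transcripts match 2 pseudogenes, Atp6v0c-ps2 at 99.7% over 387 bases and Atp6v0c-ps1 at 97.2% over 389 bases, so reads that fit several places may not have been counted, and its level is uncertain.

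Both transcription factors had low counts. Tfeb was at 20.4 and 14.5 CPM (log2 ratio -0.49, interval -0.70 to -0.28) and Mitf at 55.5 and 38.5 CPM (-0.53, interval -0.66 to -0.40). The Mitf ratio turned to 0.16 when the clusters drawn almost wholly from a single library were left out.

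The cells were clustered jointly with the 37 genes left out, and each cluster is named here by its leading gene, the gene with the highest fold over other cells. The Igf1-led and Cd163-led clusters were macrophage-like (9 of 12 markers each), the Mpp7-led cluster monocyte-like (5 of 10), and the Klrd1-led cluster conventional dendritic cell-like (9 of 12). The Ifit1bl1-led cluster was monocyte-like (5 of 10) with interferon-induced genes in the lead. A small neutrophil-like cluster was led by Mrgpra2b, with 1 and 19 cells. The other clusters reported here met no marker set of a cell type. Among them, a Slc9b2-led cluster with Ctsk and Atp6v0d2 had 6 of 6 cycling markers, a set that was not used for naming. A Lars2-led cluster of shallow cells (38 and 3 cells, median 4038 UMIs) was set aside from the descriptions by state. In 12 of the 16 clusters more than 90% of the cells belonged to a single library, and such a cluster may be a property of that library and not a type. The sets with at least 30 cells of a library numbered 17, from 14 clusters.

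The per-cell score, the percentage of a cell's UMIs that came from the 37 genes, had a median of 1.44% in the non-diabetic library (quartiles 1.12% and 1.72%) and 1.51% in the diabetic library (1.23% and 1.96%). With each cell thinned to 2000 UMIs the medians were 1.4% and 1.5%, with 37 and 25 shallower cells left out. Among sets with at least 30 cells of a library, those of the Igf1-led cluster had the highest medians in both libraries. These were 2.99% (quartiles 2.41% and 3.72%, 42 non-diabetic cells) and 3.17% (2.10% and 3.68%, 101 diabetic cells). The Cd163-led cells of the diabetic library followed at 2.60% and the Inpp4b-led cells at 1.96%. The Klrd1-led, dendritic cell-like cells were lowest among these sets in both libraries, at 0.923% and 0.842%. Outside these sets, the 19 neutrophil-like Mrgpra2b-led cells of the diabetic library had a median of 0.401%. The 38 Lars2-led cells of the non-diabetic library, set aside for low depth, had 0.643%. In the Igf1-led and Klrd1-led clusters the median of each library lay within the quartiles of the other. The gap between these 2 clusters was wider than the gaps between libraries within them. Since they had the highest and lowest medians of these sets, this order does not weigh state against library. Igf1-led and Cd163-led cells together held a larger part of the diabetic library, 6.24% and 11.4% of its UMIs, against 3.26% and 1.20% in the non-diabetic library.

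**Figure D2:**
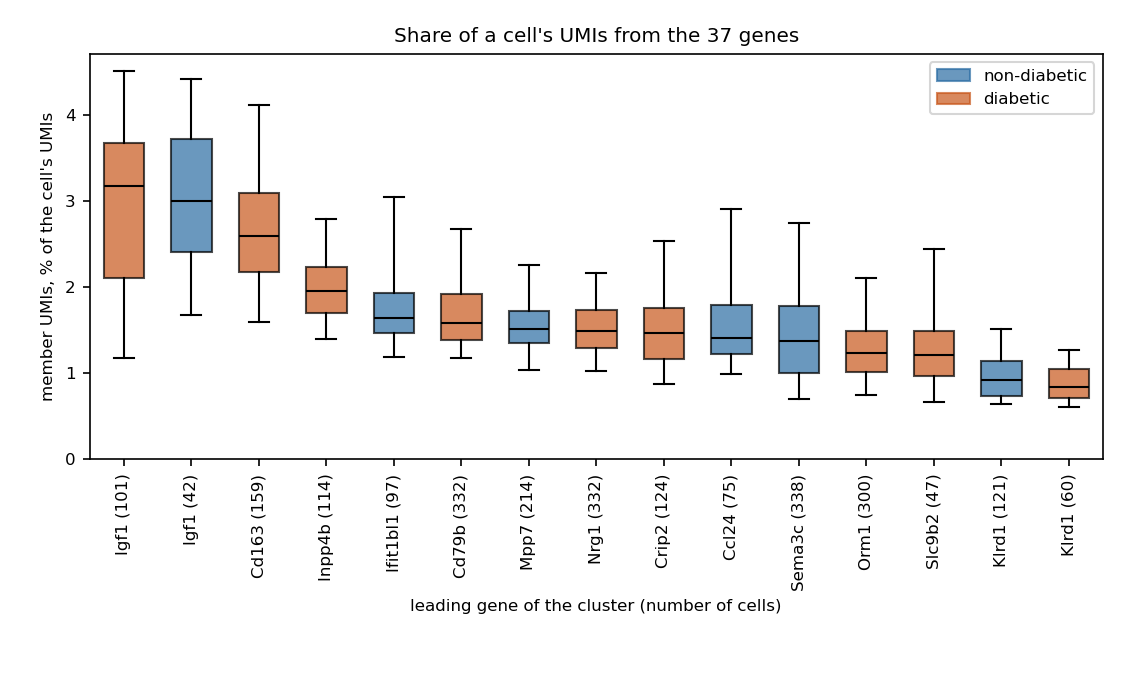
UMIs from the 37 genes in percent of a cell's UMIs, for 15 of the 17 sets of cells (cluster leader and number of cells on the horizontal axis) of the non-diabetic (blue) and diabetic (orange) library. Lines are medians, boxes quartiles and whiskers the 5th and 95th percentiles; medians run from 0.842% in Klrd1-led to 3.17% in Igf1-led cells, both of the diabetic library.

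The median range between these sets was wider for the proteases than for the pump subunits. Taken as the highest over the lowest CPM of the 17 sets with 1 CPM added, the median range was 7.80-fold for the 9 proteases and 2.65-fold for the 6 pump subunits with a mean of at least 50 CPM. For all 2812 genes at that level it was 3.35-fold, and for the 33 of the 37 genes at that level 4.85-fold. The lipid group (8 genes) had a median range of 5.23-fold, the membrane proteins (6 genes) 4.24-fold and the glycosidases (3 genes) 3.84-fold. Mitf, the only transcription factor at that level, had a range of 11.4-fold. Of the 37 genes, 15 were highest in Igf1-led cells and 14 were lowest in Klrd1-led cells. The same shares over all genes are not given here, so these counts are not shown to be particular to the 37.

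Cd63 was at 30.3 CPM in Klrd1-led cells and at 1581 CPM in Igf1-led cells, both of the diabetic library. Ctsl ran from 90.4 CPM in Klrd1-led to 4328 CPM in Cd163-led cells, Ctsd from 148 to 2428 CPM and Lgmn from 140 to 2580 CPM, the latter 2 from Klrd1-led to Igf1-led cells. Ctsb reached 5079 CPM and Psap 4914 CPM in Igf1-led cells of the non-diabetic library. Lipa was at 490 CPM in Igf1-led cells of the diabetic library and at 37.7 CPM in Sema3c-led cells. Mitf was highest in Ccl24-led and Igf1-led cells of the non-diabetic library (140 and 137 CPM) and at 11.4 CPM in Klrd1-led cells of that library.

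Some members had other patterns. Ctsh and Laptm5 were highest in the dendritic cell-like Klrd1-led cells of the non-diabetic library (879 and 1088 CPM), the cluster in which Ctsb, Ctsd, Ctsl and Lgmn had their lowest levels. Ctsc was highest in Inpp4b-led cells (2758 CPM) and Npc2 in Ifit1bl1-led cells (1867 CPM). The Slc9b2-led cells, 47 in the diabetic library, had the highest Atp6v0b (669 CPM), Atp6v0e (647 CPM) and Atp6v1b2 (447 CPM) of the 17 sets. The same cells had the lowest Ctsh (112 CPM), Lamp2 (81.1 CPM), Ppt1 (41.8 CPM), Scarb2 (39.3 CPM) and Atp6v0d1 (96.5 CPM). Their genes with high fold over other cells included Ctsk, a collagen-degrading cathepsin, and Atp6v0d2, the other form of the d subunit of the pump, and the cluster's median depth was 27911 UMIs. The summed level of the pump subunits in them was 2230 CPM, the highest of the 17 sets, while the summed level of the proteases was 4377 CPM, against 15850 CPM in Igf1-led cells of the same library. Across the 17 sets, the summed proteases and membrane proteins were ordered alike (Spearman's rho 0.87). The proteases were ordered less like the pump subunits (rho 0.50) and the glycosidases (rho 0.44). These sets share 2 libraries, and the values describe them only.

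**Figure D3:**
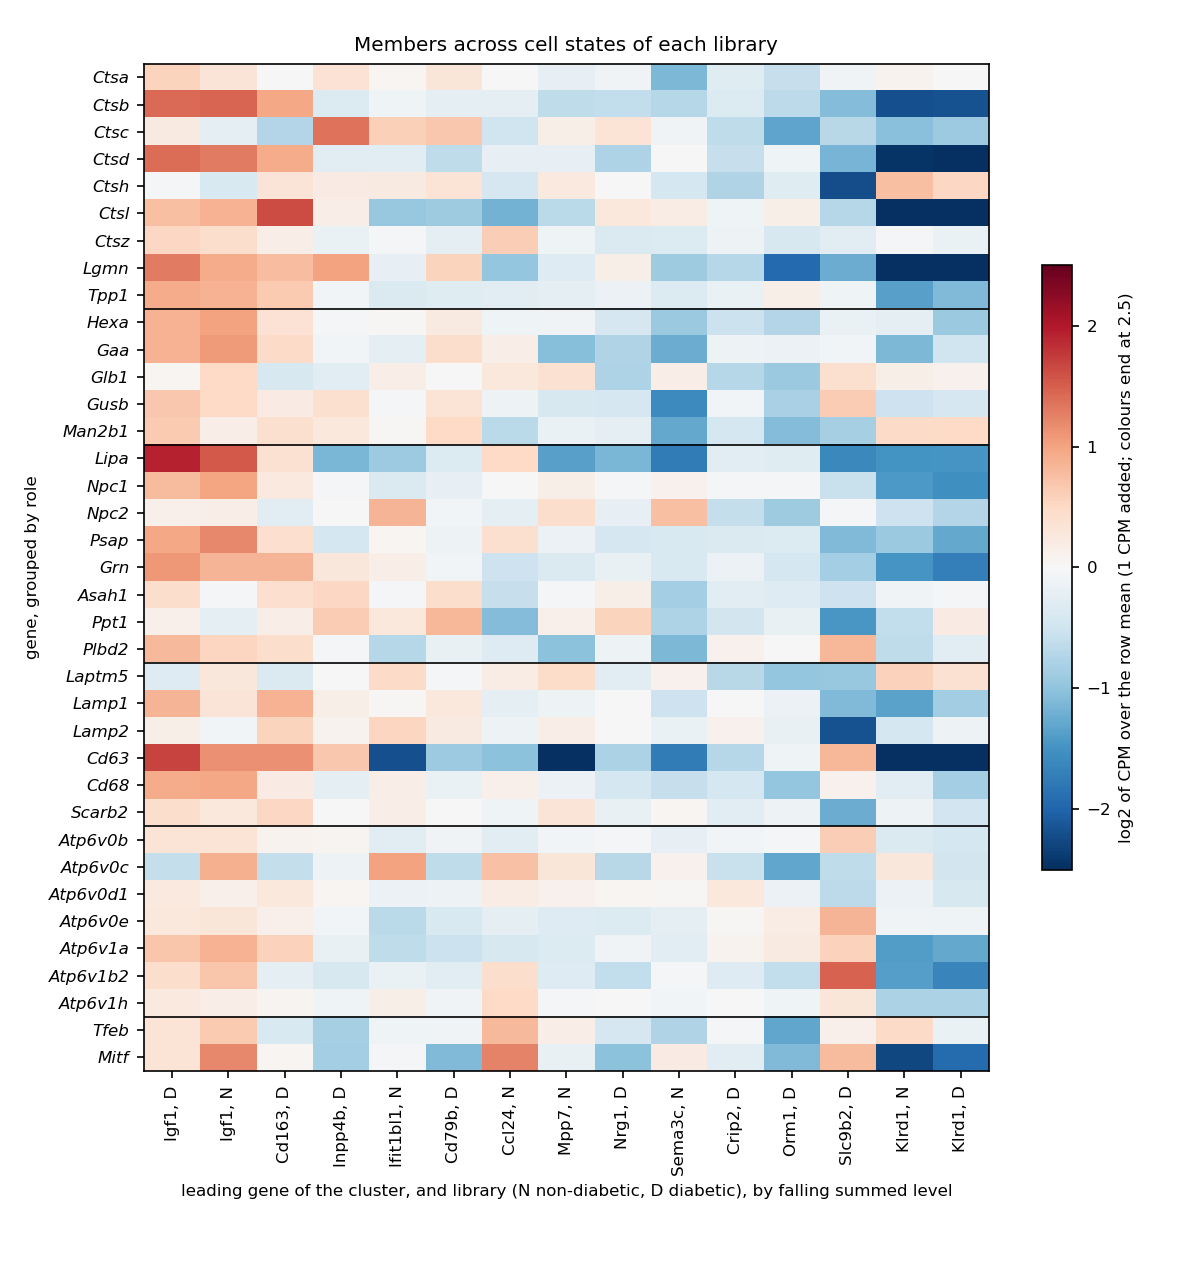
Level of each gene (rows, grouped by role) in 15 of the 17 sets of cells (columns, by cluster leader and library, N non-diabetic and D diabetic), as log2 of the CPM over the row's mean in these 15 sets with 1 CPM added. The columns at the left, Igf1-led and Cd163-led, are high for most proteases and lipid genes, and the Slc9b2-led column is high for Atp6v0b, Atp6v0e and Atp6v1b2 and low for Lamp2 and Ctsh.

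To set like cells side by side, the ratio between libraries was also taken within the 3 clusters to which both libraries gave 30 cells or more, among them Klrd1-led (121 and 60 cells) and Igf1-led (42 and 101) cells. Most UMIs of both libraries lay outside these 3 clusters. Klrd1-led cells held 15.3% of the UMIs of the non-diabetic and 3.58% of those of the diabetic library, and Igf1-led cells 3.26% and 6.24%. The average thus describes these clusters and not the libraries as a whole. Averaged over the 3 clusters, the median log2 ratio of the 37 genes was -0.03, against -0.04 over 7074 genes and 0.19 in the sums over all cells. No gene of the 37 was at least 1.5-fold higher in that average, and 1, Atp6v0c, was lower, against 4.48% and 7.44% of all genes. Lgmn, 1.82-fold higher in the sums, had log2 ratios of -0.36 in Klrd1-led and 0.37 in Igf1-led cells. In the same order, Npc2 was at -0.21 and -0.03, Lipa at 0.03 and 0.37, and Plbd2 at 0.36 and 0.25. For these 4 genes the gap within either cluster was smaller than in the sums.

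In Klrd1-led cells 3 genes were at least 1.5-fold higher and 5 lower, against 9.16% and 16.4% of the genes measured there. Ctsl was at 90.4 and 165 CPM (0.87, interval 0.58 to 1.16), Ppt1 at 76.4 and 136 CPM (0.83) and Gaa at 0.70 on the log2 scale with an interval that included 0. Cd63 was lower there, at 52.8 and 30.3 CPM (-0.79, interval -1.40 to -0.24), as were Hexa (-0.69) and Cd68 (-0.59). Tfeb (-0.64, on 62 and 18 UMIs) and Atp6v0c (-0.75, on 27 and 7 UMIs) were also past the fold, with intervals that included 0. In Igf1-led cells 0 genes were higher and 3 lower, against 12.9% and 15.4%: Laptm5 at 883 and 578 CPM (-0.61, interval -0.77 to -0.45), Mitf at 137 and 75.2 CPM (-0.87, interval -1.29 to -0.43) and Atp6v0c, on 9 and 11 UMIs.

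Among the 37 genes, Cd68 was thus lower in the diabetic library in the dendritic cell-like cells, at 318 and 210 CPM, and near level in Igf1-led cells (748 and 728 CPM). Ctsl was higher in Klrd1-led cells and slightly lower in Igf1-led cells (2569 and 2349 CPM, -0.13). Cd63 and Lamp1 in Igf1-led cells were at log2 ratios of 0.53 each, at 1092 and 1581 CPM for Cd63 and at 1084 and 1571 CPM for Lamp1. Differences between the clusters in these ratios were not tested, since each rests on 1 library per group.

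**Figure D4:**
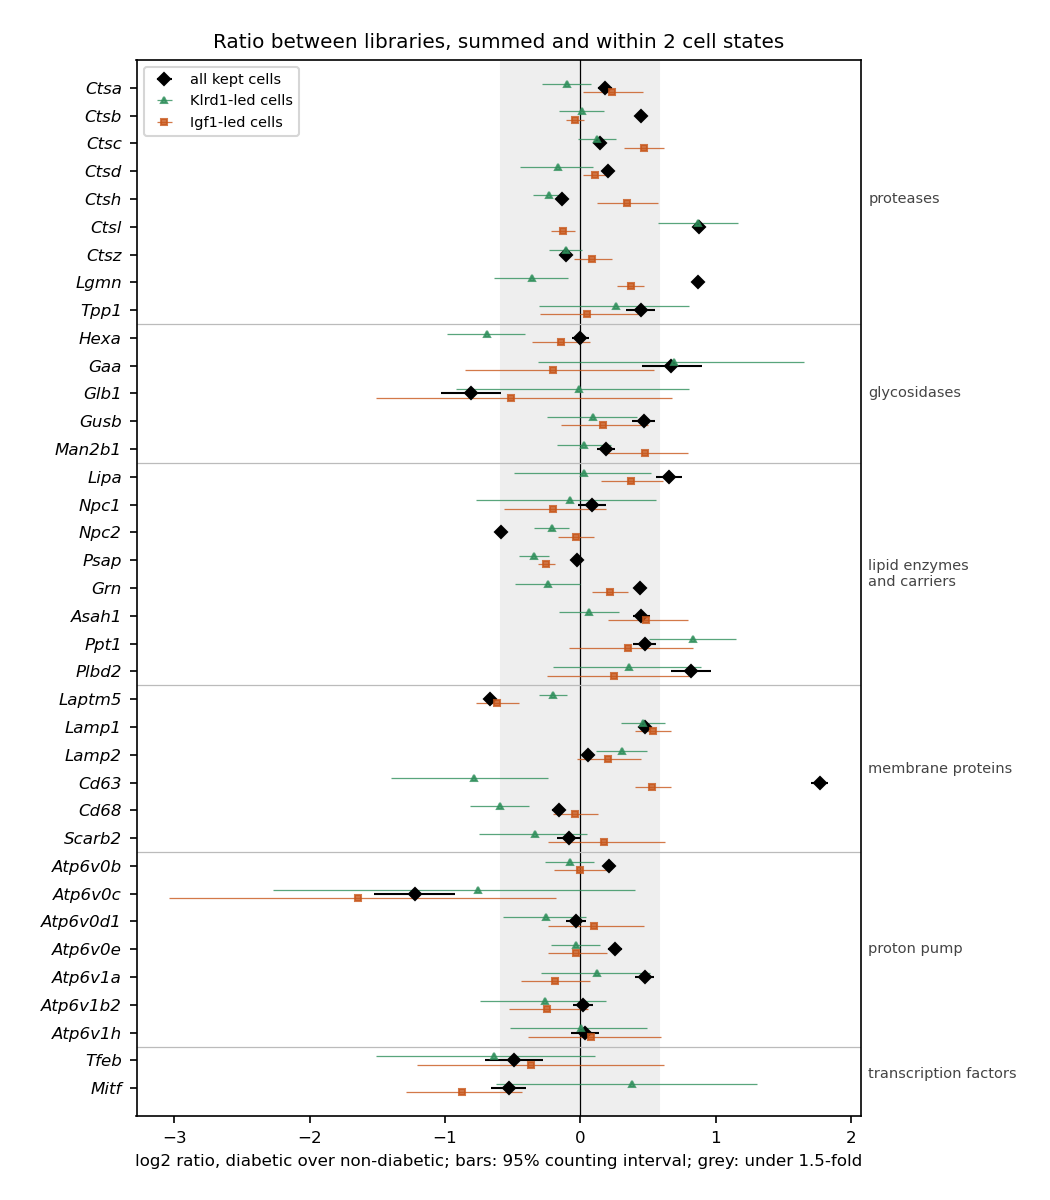
Log2 ratio of the diabetic over the non-diabetic library for each gene, over all kept cells (diamonds) and within Klrd1-led (triangles) and Igf1-led (squares) cells, with 95% counting intervals as bars and the range under 1.5-fold in grey. Cd63 has the widest spread, with 1.77 over all cells, 0.53 in Igf1-led and -0.79 in Klrd1-led cells, and Lgmn lies at 0.87 over all cells but inside the grey range in both clusters.

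The other genes of the pathway were read from 6 further lists of 125 genes, of which 123 were measured. At least 1.5-fold higher in the diabetic library were 24 of these (19.5%) and lower were 6 (4.88%), against 18.7% and 12.9% of all measured genes. Their median log2 ratio was 0.18, against 0.12 over all measured genes. The other hydrolases stood at 14 higher (35%) and 3 lower (7.5%) of 40, with a median of 0.42. Ctsk was at 20.4 and 155 CPM, Acp5, an acid phosphatase, at 75.4 and 228 CPM, and Hgsnat, which acetylates heparan sulfate for its breakdown, at 17.2 and 55.5 CPM. Gm2a, the activator protein that presents a ganglioside to hexosaminidase, was at 452 and 273 CPM (log2 ratio -0.73), Scpep1 at -0.71 and Gla, encoding alpha-galactosidase, at -0.37. The third lower gene, Fuca2, was at 49.6 and 28.8 CPM and was picked out after its values were seen.

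The other pump subunits were close to level, with a median of 0.12. Of 11 measured genes, 1 was higher (9.09%) and 0 lower, against 18.7% and 12.9% of all measured genes. Atp6v1g1 (0.37), Atp6ap1 (0.31) and Atp6v1f (0.21) had the highest log2 ratios among those at 50 CPM or more, and Tcirg1 (-0.36), Atp6ap2 (0.05) and Atp6v1c1 (0.07) the lowest. The gene past 1.5-fold was Atp6v0d2, at 2.85 and 18.01 CPM, which was picked out after its values were seen. Among other membrane proteins 4 of 22 were higher (18.2%, near the share of all measured genes) and 0 lower. The 4, picked out after their values were seen, were Laptm4b (log2 ratio 1.11), Tmem175 (0.80), Slc17a5 (0.72) and Tmem192 (0.61), all under 50 CPM in both libraries. Among those at 50 CPM or more, Laptm4a (0.57), Mfsd1 (0.56) and Lmbrd1 (0.17) had the highest ratios and Slc15a3 (-0.53), Slc29a3 (-0.44) and Cd164 (-0.34) the lowest.

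Genes that sort enzymes to lysosomes had 3 of 16 higher (18.75%, against 18.7% of all measured genes) and 0 lower (against 12.9%). These were Igf2r, the large mannose 6-phosphate receptor, at 26.4 and 56.7 CPM (log2 ratio 1.10), and Sort1 (1.07) and Gga2 (0.93), both under 50 CPM and picked out after their values were seen. Among those at 50 CPM or more, Igf2r, Ap1s1 (0.55) and Vps35 (0.31) had the highest ratios and Cln8 (-0.28), Ap3b1 (-0.21) and Gga1 (-0.10) the lowest. Of 14 measured genes of the TFE family and of nutrient sensing at the lysosome, 0 were higher and 1 lower (7.14%). The lower gene was Lamtor3, a part of the Ragulator scaffold, at 94.0 and 46.8 CPM, while among those at 50 CPM or more Rragc (0.55), Lamtor2 (0.51) and Lamtor1 (0.49) had the highest log2 ratios, and Rraga (-0.42) and Fnip1 (-0.36) followed Lamtor3 at the low end. Of 20 autophagy genes 2 were higher (Atg5, and Wipi1 at 11.3 and 21.7 CPM, picked out after its values were seen) and 2 lower (Uvrag and Sqstm1). These shares, 10% each way, were below those of all measured genes. Atg5 was at 39.0 and 72.5 CPM, Becn1 at 0.14 and Rab7 at 0.13 on the log2 scale, while Uvrag was at 128 and 74.9 CPM and Sqstm1, the receptor that links cargo to autophagosomes, at 299 and 183 CPM. Gabarapl2 was near level at -0.08.

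For some of the 37 genes the counts may mix transcripts. Ctsd is identical over 671 bases to Gm49369, which is also listed in the matrices and overlaps its exons on the same strand, and Ctsl is identical over 395 bases to Gm49230. Exons of Atp6v0b, Atp6v1h, Ctsa, Ctsb, Ctsl, Ctsz, Grn, Hexa, Lamp1, Npc1, Plbd2 and Ppt1 overlap a gene on the opposite strand, and whether the counting used strand is not given in the sources used here.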

How the data were processed

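Single-cell libraries were made from 1 non-diabetic and 1 diabetic pool. Values are the raw UMI counts that the authors deposited for every gene in every barcode. The matrices were made with Cell Ranger 3.0.2 per the file headers and with the build mm10 per the submitters' processing notes, and the annotation release is not given in the sources used here. UMIs were summed over kept cells, scaled to CPM and compared as ratios with 0.5 added to each sum and exact binomial 95% intervals. With 1 library per group no test was run. Precision follows from the UMI numbers given with each library, and intervals cover counting error only.

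Cells were clustered jointly without the 37 genes and without batch correction (2000 variable genes, 30 components, 15 neighbours, Leiden resolution 1, scanpy 1.11.5, leidenalg 0.10.2, Python 3.11.15). A cluster was named when at least 3 markers and at least 50% of a set were 2-fold up and found in 10% of its cells, a rule set after the data were seen. The cycling set gave no name. Clusters are called by the leading gene that is found in at least 25% of their cells and is not among the 37. Scrublet marked 2 and 4 cells as doublets (0.178% and 0.228%), too few for the caller to have worked, and these stayed in the sums.

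All 37 genes are accounted for. From each other list up to 3 genes with the highest and up to 3 with the lowest ratio among those at 50 CPM or more are named. The genes and lists were chosen with earlier results of these data known. Near-identical transcripts (95% over at least 200 bases) were found with BLAST 2.17.0 against GENCODE. Alternatives covered the cell filter, the cells summed, the UMI floor, thinning, the scaling and the clustering. The scalings included edgeR 4.0.16 and DESeq2 1.42.0 size factors in R 4.3.3, and centring. The ratio script was tested on simulated data. The values of 1 cluster and 1 marker gene are not reported here.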

Additional observations from a re-analysis of the deposited data

How the results depend on the processing

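The number of the 37 genes at least 1.5-fold higher in the diabetic library, 6, became 11 without clusters mostly of 1 library (29.7%, against 12.8% of all genes in the same cells). Counts that moved by 1.5 times or less are left out here, among them the smaller number higher with centring given above. The number lower, 3, became 5 without dendritic cell-like and neutrophil-like cells, 1 without clusters mostly of 1 library, 5 with cells thinned, 5 with the mean of per-cell CPM, and 6 with TMM, with DESeq2 size factors and with centring. The share of all measured genes lower was 12.9% in the sums, 10.6% without clusters mostly of 1 library and 15.9% with centring. It is not given for the other settings, so those counts have no background beside them. The median log2 ratio, 0.19, was 0.11 under a stricter cell filter (1000 genes or more, mitochondrial UMIs below 5%), 0.0625 without dendritic cell-like and neutrophil-like cells, 0.0726 with TMM, 0.0640 with DESeq2 size factors and 0.0646 with centring. These scalings moved the ratio of every gene by -0.11 (TMM) or -0.12 (DESeq2 and centring). The share of UMIs from the 37 genes, 1.48% in the non-diabetic and 1.70% in the diabetic library, was 1.43% and 1.68% over all barcodes, 1.44% and 1.65% with the stricter cell filter, 1.57% and 1.73% without dendritic cell-like and neutrophil-like cells, 1.44% and 1.92% without clusters mostly of 1 library, 1.53% and 1.68% with cells thinned, 1.78% and 2.07% without mitochondrial and ribosomal protein genes, and 1.53% and 1.70% as a mean over cells. An alternative chosen after seeing the data, without the Lars2-led cells, gave 1.49% in the non-diabetic library. The median ratio within shared clusters, -0.03, was -0.13 at resolution 0.5, -0.10 with the 37 genes kept in the clustering and -0.11 with at least 50 cells per library. The causes of these shifts were not tested beyond what each alternative removes. Of 65 values of these summaries under alternatives 34 moved by less than counting error or by 1.5 times or less. Among the 34 are the values under another UMI floor for measured genes. These could not move, because all 37 genes passed every floor used. No gene past the 1.5-fold mark changed sign. Of the 37 genes, 13 others changed sign in at least 1 setting. Cd63, Ctsl, Lgmn and Atp6v0c were past 1.5-fold in all 14 settings of the sums. The settings with another UMI floor could not change these ratios. Leaving out single clusters and the ratios within shared clusters are not among the 14. Without the Cd163-led cells the log2 ratio of Ctsl was 0.55, under the 1.5-fold mark. In the average over shared clusters, Atp6v0c was the only 1 of the 37 genes past that mark. No paired analysis was possible because each group is 1 library. Genes with few UMIs, such as Atp6v0c, Gaa, Glb1 and Tfeb, were limited by depth within clusters.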
